A study of Drosophila melanogaster with 31 samples.

Results

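The late-opening regions are stretches of accessible chromatin in Drosophila melanogaster embryos at 11-12 h after egg laying that had no strong counterpart in gastrulating or younger embryos. They were chosen from measured values. Overlapping peaks of each list were merged into regions and ranked by their highest −log10 q, the strength that the peak caller gave a summit. A region of the grhB37/+ list at 11-12 h was a member when it lay on chromosome 2 or 3, was among the strongest 5000 regions of its list and overlapped none of the strongest 15000 regions of any of the 10 lists of stages 5 and 6. Of 20540 regions in the grhB37/+ list, 3858 were among the strongest 5000 and on these chromosomes. Of these, 968 were late-opening (25.1% of 3858), and the other 2890 are called regions with an early counterpart. The share of 25.1% and the strength at 11-12 h follow from the rule and are no result.

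Accessibility was measured by ATAC-seq, in which a transposase inserts sequencing adapters into DNA not covered by nucleosomes, in 31 samples of 12 conditions. At 11-12 h there was 1 sample of grhB37/B37 embryos (labelled grhB37/grhB37) and 1 of grhB37/+ embryos, each a pool of 7 whole embryos. With 1 sample per genotype no test across samples was possible, and the intervals below are exact Clopper-Pearson 95% intervals that cover counting error over regions only. Regions were chosen as strong in the grhB37/+ sample alone. A lower value or a missing region in grhB37/B37 is therefore partly built in, and how large that part is was not tested. The allele grhB37 is a null allele of grh that was kept over a CyO balancer chromosome carrying a red fluorescent marker, and homozygous embryos were picked by the absence of red fluorescence. The controls were their siblings and carried 1 copy of the null allele, and both genotypes had maternal grh. The balancer is a form of chromosome 2, where grh itself lies, so values in the mutant are also given for chromosomes 2 and 3 apart. The early lists came from 29 single embryos: grhM-Z-, grhMwtZwt, grhM- and grhMwt at stage 5 and again at stage 6, and grhB37/B37 and grhB37/+ at stage 6. Embryos called grhM- came from germline clones of the null allele and lacked maternal grh, those called grhM-Z- lacked maternal grh and were also grhB37/B37, grhMwt embryos had maternal grh, and grhMwtZwt embryos had maternal grh and were grhB37/+. There were 3 embryos per early condition, except 2 for grhMwtZwt at stage 6. The early embryos gave paired-end reads of 150 bp of which short fragments were kept, and the embryos at 11-12 h gave single-end reads of 100 bp without that selection. Age and library protocol therefore cannot be told apart in anything that separates late-opening regions from the rest. In whole embryos, fewer cells with an open region and less signal per cell cannot be told apart either.

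Grainy head (Grh) is a transcription factor of epithelia. In the fly embryo it is known for its action on the genes of the cuticle, of septate junctions and of wound repair in the epidermis and the trachea. Embryos at this age have finished germ band retraction, close their epidermis along the back, and begin to differentiate muscle, neurons, trachea and the cells that will secrete the larval cuticle. Pulses of the steroid hormone ecdysone act at these stages through a cascade of nuclear receptors. At stages 5 and 6 the embryo has just activated its own genome, with the factor Zelda (Zld) opening many of the early regulatory regions, and starts to gastrulate.

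Sequences are shown first for the members with a canonical Grh motif, since they hold the string that Grh is known to bind. Each is the window of 101 bases centred on the strongest summit, printed 5′ to 3′ on the plus strand of the RefSeq Release 6 assembly (the same build as dm6), with the motif (AACCGGTT or AACTGGTT on either strand) in capitals. Of the 12 members with this motif, 6 are printed. The window near elB, which encodes a zinc finger protein of tracheal and appendage development, is chr2L:14409621-14409721, and that of tfc is chr3L:1265507-1265607. Both lie at promoters. The window upstream of Reg-2 is chr3L:616567-616667, in an exon of a noncoding gene. The other 3 lie in introns, nearest CG14731 at chr3R:11937911-11938011, within the cadherin gene Cad87A, within CG6959 at chr3R:11849803-11849903, and within tara, a transcriptional co-regulator, at chr3R:16237235-16237335.
elB: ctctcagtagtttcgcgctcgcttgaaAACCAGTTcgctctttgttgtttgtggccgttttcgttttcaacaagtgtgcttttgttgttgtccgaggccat
Reg-2: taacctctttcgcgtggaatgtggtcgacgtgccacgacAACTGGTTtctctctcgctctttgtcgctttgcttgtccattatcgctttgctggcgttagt
CG14731: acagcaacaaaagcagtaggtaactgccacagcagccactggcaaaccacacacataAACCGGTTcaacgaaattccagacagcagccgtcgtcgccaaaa
CG6959: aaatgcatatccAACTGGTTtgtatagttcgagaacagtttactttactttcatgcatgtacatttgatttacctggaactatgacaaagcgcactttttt
tfc: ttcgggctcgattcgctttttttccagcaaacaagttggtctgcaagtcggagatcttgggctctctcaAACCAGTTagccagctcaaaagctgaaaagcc
tara: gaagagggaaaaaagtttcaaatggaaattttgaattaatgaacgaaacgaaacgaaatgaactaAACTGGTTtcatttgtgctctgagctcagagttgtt

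The summit pileup is the number of reads over a summit, worked back from the caller's enrichment and Poisson p at that base. In grhB37/B37 and grhB37/+ embryos it was 53 and 95 reads at elB, 47 and 83 at Reg-2, 38 and 59 at CG14731, 48 and 71 at CG6959, and 38 and 61 at tfc. With each pileup over the median background of its list, the log2 ratios of mutant to control were −0.88, −0.86, −0.67, −0.60 and −0.72. Of the 3166 strongest regions with a mutant region, 3062 were below 0 on this scale. When the median ratio of the 3119 regions that both genotypes shared among their strongest 5000 was set to 0 instead, every log2 ratio was higher by 0.61, and the 5 became −0.27, −0.25, −0.06, 0.01 and −0.11, so the direction at CG6959 flips with the scaling. At tara, of rank 4909 in grhB37/+, no region was called in grhB37/B37, against 93 reads in grhB37/+. A mutant region was likewise missing at 17.9% of all 3858 strongest regions, and at 37.5% of those at ranks 4001 to 5000.

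A second set of sequences shows the most frequent of the motifs searched and an example of the repeated sequence described below. The string GAGAGAG, bound by the GAGA factor Trl, is in capitals. The windows are those at the promoters of Msp300 (chr2L:5108346-5108446), which encodes a nesprin that anchors muscle nuclei, of Rgl (chr3L:13920006-13920106), which encodes an activator of Ral GTPases, of the heat shock gene Hsp70Ba (chr3R:12467869-12467969), and of 2 of the copies of the histone gene His4 (chr2L:21469374-21469474 and chr2L:21474434-21474534). The His4 windows shared an unbroken run of 84 bases.
Msp300: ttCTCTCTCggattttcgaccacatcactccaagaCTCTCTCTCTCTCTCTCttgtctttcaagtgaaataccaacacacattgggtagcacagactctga
Rgl: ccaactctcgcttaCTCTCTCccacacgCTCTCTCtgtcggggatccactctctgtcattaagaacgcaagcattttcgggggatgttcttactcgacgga
Hsp70Ba: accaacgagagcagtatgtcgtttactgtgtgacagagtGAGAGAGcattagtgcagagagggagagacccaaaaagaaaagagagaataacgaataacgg
His4:CG33895: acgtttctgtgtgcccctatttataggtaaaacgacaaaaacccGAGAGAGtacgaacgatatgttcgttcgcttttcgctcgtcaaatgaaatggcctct
His4:CG33893: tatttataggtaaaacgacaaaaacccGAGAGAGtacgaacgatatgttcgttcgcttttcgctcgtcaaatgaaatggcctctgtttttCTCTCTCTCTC

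The GATA string AGATAAG, in capitals in the next windows, was in 13 members (1.34%). It is the site of factors such as serpent, which act in gut, fat body and blood. The windows are an intergenic one nearest Fmr1 (chr3R:10093663-10093763) and the promoter of smp-30 (chr3R:14748092-14748192).
Fmr1: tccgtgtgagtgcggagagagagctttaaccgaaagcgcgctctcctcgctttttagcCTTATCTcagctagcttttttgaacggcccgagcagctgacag
smp-30: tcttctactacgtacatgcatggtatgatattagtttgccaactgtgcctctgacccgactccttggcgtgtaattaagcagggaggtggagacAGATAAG

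A smaller share of the late-opening regions than of the regions with an early counterpart lay at promoters. The strongest summit was within 1 kb of the start site of a protein-coding gene in 456 late-opening regions (47.1%, interval 43.9% to 50.3%), against 2143 regions with an early counterpart (74.2%, interval 72.5% to 75.7%). Introns held 227 (23.5%, interval 20.8% to 26.3%), against 337 (11.7%, interval 10.5% to 12.9%), and intergenic sequence held 250 (25.8%, interval 23.1% to 28.7%), against 305 (10.6%, interval 9.46% to 11.7%). Coding exons held 14 late-opening summits, untranslated regions 4 and exons of noncoding genes 17. The median distance to a start site was 1385 bp among late-opening regions and 141 bp among those with an early counterpart. Summits more than 20 kb from a start site made up 16.5% of the late-opening regions (160) and 3.36% of the others (97). Late-opening regions were also narrower, with a median width of 525 bp against 629 bp, and somewhat weaker within the list, with a median rank of 3022.5 against 2374.5. A wider region overlaps an early one more easily, so the rule itself favours narrow members. Their median width also fell with rank, from 624 bp at ranks 1 to 1000 to 453 bp at ranks 4001 to 5000. Late-opening regions were spread over all 4 arms, with 236 on 2L, 199 on 2R, 268 on 3L and 265 on 3R.

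**Figure D1:**
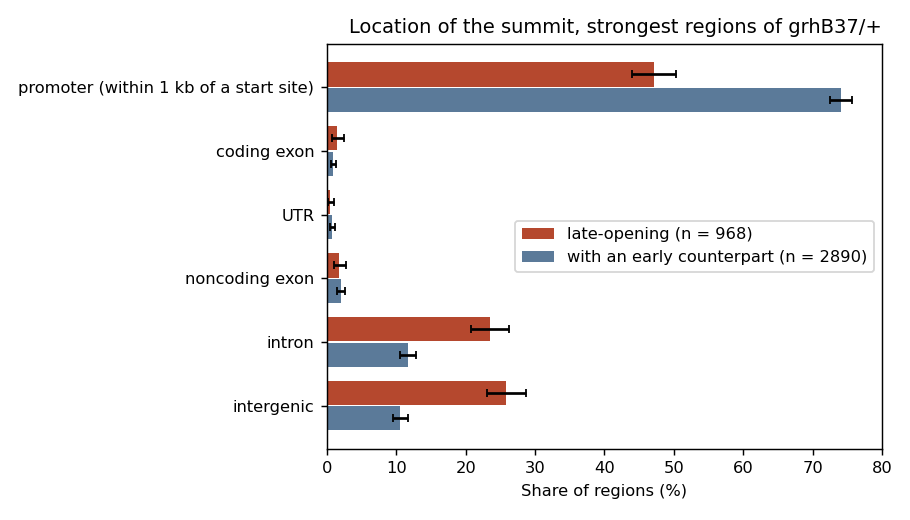
Share of regions (x axis, percent) whose strongest summit fell in each kind of annotated sequence (y axis), for the 968 late-opening regions and the 2890 regions with an early counterpart; whiskers are exact 95% intervals. Promoters take 47.1% of late-opening summits and 74.2% of the others, and introns and intergenic sequence take more of the late-opening ones.

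The rule asks only that a member missed the strongest 15000 of each early list, so weaker early regions were counted. No region at all was listed in any early condition at 441 members (45.6%), while 527 (54.4%) overlapped a weaker early region. Of these, 265 did so in 1 to 3 lists, 254 in 4 to 9 lists and 8 in all 10. A weak region was present at 492 members in at least 1 of the 6 stage 6 lists and at 274 in at least 1 of the 4 stage 5 lists. It was confined to stage 6 lists at 253 members and to stage 5 lists at 35. By list, the share ran from 10.02% in grhMwt at stage 5 to 40.6% in grhB37/B37 at stage 6, and these lists also differ in length, from 31898 to 81187 regions. The longest lists, grhB37/B37 and grhB37/+ at stage 6, had a weak region at 393 and 384 members. The other stage 6 lists had one at 157 to 227 members, and the stage 5 lists at 97 to 167. The uneven number and length of the lists enter the counts by stage. The promoter share was 39.5% with no early region, 49.1% with 1 to 3 lists and 58.7% with 4 to 9. However, 237 of the 441 members with no early region had a summit window of repeated sequence, as described below. Among members with an unrepeated window, no early region was listed at 30.5% of promoters (121 of 397) and 30.6% of the others (83 of 271). The strongest promoter of Msp300, with 77 reads in grhB37/B37 and 125 in grhB37/+ at 11-12 h, was among the 8 members with a weak region in every early list, as was an intron of ftz-f1, a nuclear receptor of the ecdysone cascade, with 54 and 102 reads.

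A large part of the late-opening regions lay in sequence that occurs more than once in the genome. A window was called repeated when over 50% of its 71 words of 31 bases were found elsewhere in the reference, a measure chosen after the data were seen. Repeated windows made up 300 of 968 late-opening regions (30.99%), against 80 of 2890 regions with an early counterpart (2.77%). The summit lay in an annotated transposable element in 126 late-opening regions (13.02%), against 21 of the others (0.727%). Of the repeated windows 237 had no region in any early list, and 19.7% were at promoters. Among the 668 late-opening regions with an unrepeated window the promoter share was 59.4% (interval 55.6% to 63.2%), against 75.9% (interval 74.3% to 77.5%) of the unrepeated regions with an early counterpart. The difference in promoter share was smaller without the repeated windows, and its intervals did not overlap. It was not alike over the rank classes of the control list that are used below. From the strongest class down, promoters held 69.9%, 74.1%, 65.4%, 57.7% and 43.5% of unrepeated late-opening regions. For unrepeated regions with an early counterpart the shares were 72.0%, 75.3%, 78.4%, 78.4% and 75.8%. The intervals overlapped in classes 1 and 2 and were apart in classes 3 to 5. The authors removed reads that aligned to several places from the early libraries and processed the later ones likewise. Whether every such read was removed from the single-end libraries at 11-12 h was not tested.

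The genes nearest to the most members were largely those beside repeated sequence. Myo81F, a myosin gene in the pericentromeric part of 3R, was nearest to 21 members, mRpS5, which encodes a mitochondrial ribosomal protein, to 14, CG40228 and Pzl, a Piezo-like channel gene, to 11 each, the translation factor gene eIF4B to 7, and l(3)80Fj to 6. Of the next 4, CG9380, the zinc finger gene jing and DIP-lambda, which encodes a neuronal recognition protein, had 5 each, and so had ftz-f1. Every window was repeated at these genes except at ftz-f1, where none of the 5 was. In all, 752 genes were nearest to a member, 647 of them to 1 member, 64 to 2, 21 to 3 and 20 to 4 or more.

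The 10 strongest members were mostly of this kind as well, since 7 of their windows were repeated. The strongest, at the very end of the 2L sequence (chr2L:23512781-23513712) and nearest to the mitochondrial import gene Tim23, had 247 reads in grhB37/B37 and 219 in grhB37/+. A region upstream of the bestrophin channel gene Best4 had 149 and 211 reads, one upstream of a5 had 129 and 181, one downstream of CG43968 had 169 and 136, and one downstream of CG40228 had 186 and 189. Tim23 and CG43968 had the higher pileup in grhB37/B37 and the others in grhB37/+, but scaling by the shared regions put all 5 at 0.07 or more above 0 on the log2 scale. A pair of regions in an exon of a noncoding gene 25976 and 28140 bp from the start of the Hox gene Scr had 131 and 145 reads in grhB37/B37, against 175 and 178 in grhB37/+. The other 3 of the 10 were unrepeated. One lies in an intron of CG9380 at 11337 bp from the gap gene Kr (44 reads in grhB37/B37 and 94 in grhB37/+), one at the promoter of Syn2, which encodes a syntrophin of the dystrophin complex (63 and 110), and one at the promoter of CG42673 (73 and 116).

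Histone and heat shock genes stood out among the repeated promoters. In the histone cluster of 2L, 35 members lay between bases 21419429 and 21538601, 20 of them at promoters of His4 copies and 15 at promoters of His2A copies, and none of the 35 had a region in any early list. Their pileups ran from 78 to 119 reads in the 34 that had a region in grhB37/B37, and from 100 to 142 reads in all 35 in grhB37/+, with a median log2 ratio of −0.31 over background and 0.30 under scaling by the shared regions. Only 3 regions with an early counterpart were nearest to a histone gene. Hsp70 genes, which encode the main heat-induced chaperones, were nearest to 10 members and to 1 region with an early counterpart. The promoter of Hsp70Ba had 86 reads in grhB37/B37 and 118 in grhB37/+, that of Hsp70Bb 58 and 98, that of Hsp70Bc 58 and 72, and that of Hsp70Ab 44 and 67. The promoter of Hsp70Aa had no region in grhB37/B37 and 48 reads in grhB37/+. Over the 9 Hsp70 members with a mutant region, the median log2 ratio was −0.49 over background and 0.11 under scaling by the shared regions. On the latter scale 2 of the 9 were below 0.

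Among transposable elements, 30 families held a late-opening summit, and a few held most of them. The LTR retrotransposon 297 had 37 members, the DNA transposon H had 25, the LTR elements blood and invader1 had 8 and 7, and R1A1, a non-LTR element of the ribosomal DNA, had 6. Their state in the mutant was not alike. At element 297, 34 of 37 members had no region in grhB37/B37, and the other 3 had 25 to 32 reads there, while all 37 had 53 to 84 reads in grhB37/+. At element H all 25 members had a region in both genotypes, with 47 to 77 reads in grhB37/B37 and 64 to 96 in grhB37/+ (median log2 ratio −0.37 over background and 0.24 under scaling by the shared regions). At R1A1 all 6 members were higher in the mutant under both scalings, with 185 to 219 reads in grhB37/B37 and 113 to 161 in grhB37/+ (median log2 ratio 0.47 over background and 1.08 scaled). Of 54 annotated copies of 297 of at least 200 bp on chromosomes 2 and 3, 5 had a region in the grhB37/B37 list, 41 in the grhB37/+ list, and 8 to 18 in the early lists. For blood, 6 of 21 copies had one in grhB37/B37, all 21 in grhB37/+, and 1 to 3 in the early lists. Copies of 1 family share their sequence and are not independent of each other.

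**Figure D2:**
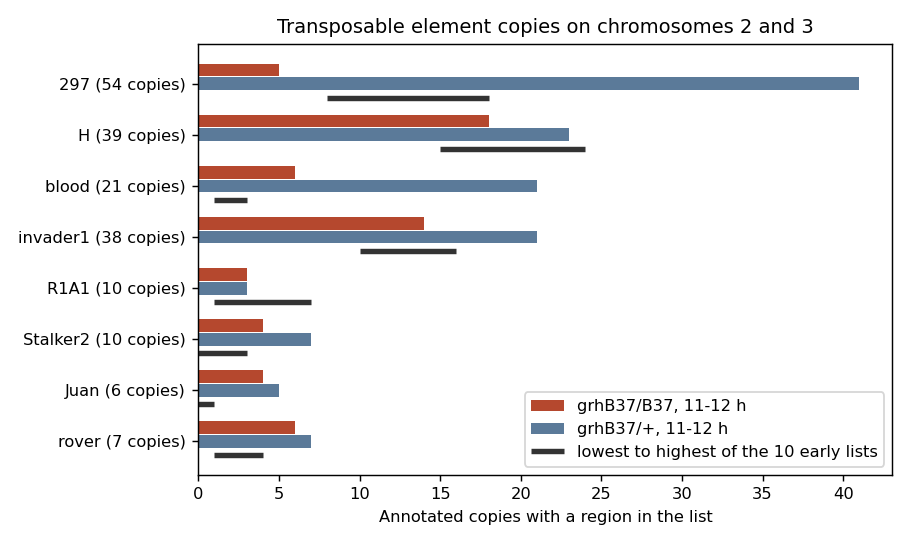
Number of annotated element copies on chromosomes 2 and 3 that overlap a region (x axis) for the 8 families with the most members (y axis), in grhB37/B37 and grhB37/+ at 11-12 h, with the lowest to highest count over the 10 early lists as a black bar. Element 297 had 5 copies with a region in grhB37/B37 and 41 in grhB37/+, and blood had 6 and 21.

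At most members a region was also called in grhB37/B37, and the share without one was close to that of all strongest regions. No region of the grhB37/B37 list overlapped 189 members (19.5%, interval 17.1% to 22.2%), against 503 regions with an early counterpart (17.4%, interval 16.04% to 18.8%). Over all 3858 strongest regions of both kinds the share was 17.9%. On chromosome 2, which carries the null allele, the shares were 21.4% and 17.7%, and on chromosome 3 they were 18.0% and 17.2%. Of the 189 members, 66 had repeated windows and 47 lay in an element. With unrepeated windows only, 123 late-opening regions had no mutant region (18.4%, interval 15.5% to 21.6%), against 494 regions with an early counterpart (17.6%, interval 16.2% to 19.0%). The grhB37/B37 list was the shorter and weaker one, with 10509 regions against 20540 in grhB37/+, and its region of rank 5000 had a −log10 q of 4.15, against 10.3. The median local background over the rows of each list was 15.8 reads, against 15.6. The log2 ratios use the median over merged regions instead, which was 15.66 and 15.26.

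The share without a mutant region was higher in weaker rank classes of the control list. Among unrepeated late-opening regions it was 0%, 1.72%, 12.6%, 25.6% and 33.7% over successive classes of 1000 ranks, the first with 0 of 73 regions and an upper limit of 4.93%. Among unrepeated regions with an early counterpart it was 0.66%, 8.29%, 17.0%, 26.4% and 38.9%. The intervals overlapped in every class except ranks 1001 to 2000, where they ran from 0.209% to 6.09% for late-opening regions and from 6.18% to 10.8% for the others. By location, 30.6% of unrepeated intergenic members lacked a mutant region (26 of 85, interval 21.0% to 41.5%), 16.2% of intronic ones (26 of 160) and 17.4% of promoters (69 of 397). Over all unrepeated strongest regions the intergenic share was 20.7% (71 of 343), and in those with an early counterpart it was 17.4% (45 of 258, interval 13.02% to 22.6%). Intergenic members were also weaker, with a median rank of 3872 against 2799 for promoters, and the part of rank in these shares was not tested.

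**Figure D3:**
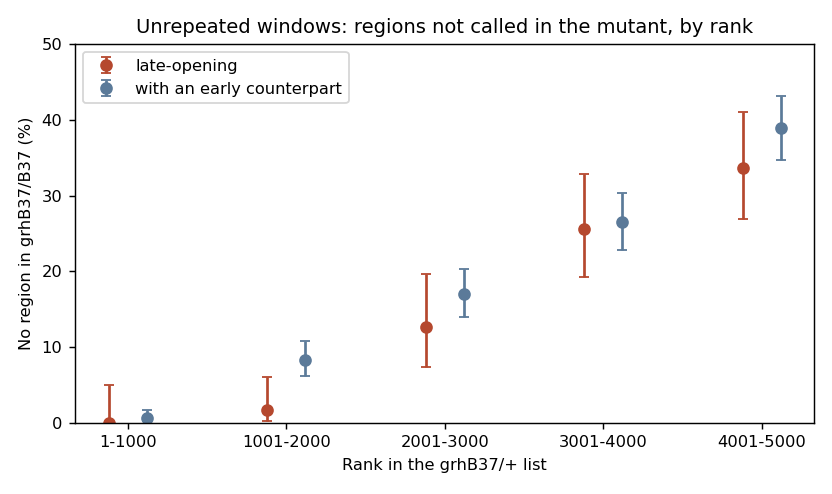
Percent of regions with no region in grhB37/B37 (y axis) by rank in the grhB37/+ list (x axis), for unrepeated windows of late-opening regions and of regions with an early counterpart; bars are exact 95% intervals. In late-opening regions the share goes from 0% at ranks 1 to 1000 up to 33.7% at ranks 4001 to 5000, against 0.66% and 38.9% in the others.

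Where both genotypes had a region, the pileup was usually lower in grhB37/B37 before scaling by the shared regions. Choosing regions by their strength in grhB37/+ partly builds in this direction. The 779 members with a mutant region had a median of 47 reads in grhB37/B37 and 69 in grhB37/+. The median log2 ratio of mutant to control, with each pileup over the median background of its list, was −0.59 (quartiles −0.81 and −0.38) in late-opening regions, but 0.02 under scaling by the shared regions, so its direction depends on the scaling. All strongest regions had a median of −0.67 and those with an early counterpart −0.68 (quartiles −0.85 and −0.51), which is −0.06 and −0.08 under scaling by the shared regions. With unrepeated windows the medians were −0.68 (quartiles −0.86 and −0.52) in late-opening regions and −0.69 (quartiles −0.85 and −0.53) in the others. The unrepeated members had −0.71 on chromosome 2 and −0.67 on chromosome 3. Promoters and intergenic regions had −0.71 and −0.62 among unrepeated members, or −0.10 and −0.01 scaled by the shared regions, and −0.66 and −0.36 with the repeated windows included.

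The regions at the ends of this spread were of different kinds. A pileup more than 2-fold lower in grhB37/B37 was found at 70 members with a mutant region, against 231 regions with an early counterpart, and over all strongest regions this was 7.8%, but under scaling by the shared regions 0 members and 1 region with an early counterpart were more than 2-fold lower. Of the 70, 60 had unrepeated windows. Over background, a higher value in grhB37/B37 was found at 60 of 779 members, against 44 of 2387 regions with an early counterpart. Over all strongest regions with a mutant region it was 104 of 3166, and none was more than 2-fold higher. Of the 60 members, 59 had repeated windows and 50 lay within 5 Mb of the centromeric end of their arm. Of all 779 members with a mutant region, 179 lay that near. So did 36 of the 44 regions with an early counterpart, beside 197 of 2387. Over all strongest regions it was 86 of the 104, beside 376 of 3166. Among repeated windows alone, a higher value in grhB37/B37 was found at 59 of 234 members and 32 of 71 regions with an early counterpart. Scaling by the shared regions instead put 16 members, all with repeated windows, and 10 regions with an early counterpart more than 2-fold higher. Repeated members as a whole had a median log2 ratio of −0.30 (quartiles −0.53 and 0.00). Of 545 unrepeated members with a mutant region, 1 was above 0 over background, but under scaling by the shared regions 339 were below 0 and the rest above.

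**Figure D4:**
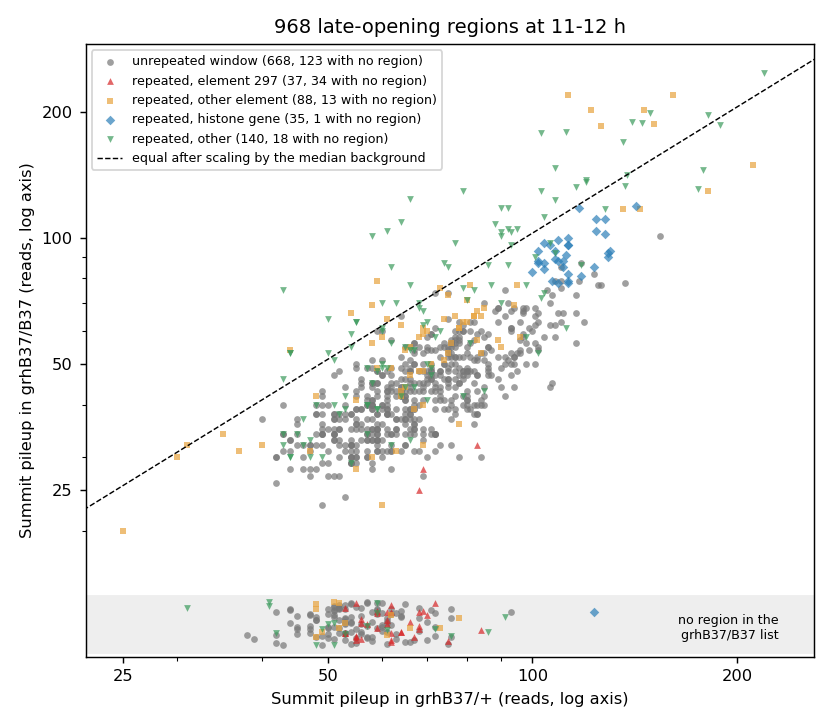
Summit pileup in grhB37/B37 (y axis, reads, log scale) against grhB37/+ (x axis, reads, log scale) for the 968 late-opening regions, with the 189 that had no region in grhB37/B37 in the grey band and kinds of repeated window in colour. Most points lie under the dashed line of equal pileup over background, but the median ratio is 0.02 under scaling by the shared strongest regions; 59 of the 60 members above the line have repeated windows.

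The strongest members without a mutant region were chiefly copies of element 297, which held 6 of the first 10. They lay in an intron of the axon guidance gene Sema1a (84 reads in grhB37/+), near udd, which acts in transcription of ribosomal RNA (68), near the zinc finger gene chn (68), near CG12426 (75), in an intron of the synapsin gene Syn (67) and near CG12517 (62). Of the others, one near CG10417 (66) lay in the element Stalker2, one was the promoter of a histone copy, His4:CG33877 (123), and one was the promoter of uex, a magnesium transporter gene (61). Only the one near CG18480 (61) had an unrepeated window. Without the members in element 297, the share with no mutant region was 16.6%.

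The 10 unrepeated members with the lowest ratios of mutant to control, named after their values were seen, were 6 promoters, 3 introns and 1 intergenic region. The promoter of rdx, which encodes an adaptor that targets the Hedgehog effector Ci for degradation, had 30 reads in grhB37/B37 and 84 in grhB37/+, a log2 ratio of −1.52 over background and −0.91 scaled by the shared regions. The promoter of Msr-110 had 30 and 78 reads, that of the phosphodiesterase gene Pde1c had 27 and 69, that of the nicotinamidase gene Naam had 45 and 107, that of the clock factor gene Pdp1 had 30 and 70, and that of the chloride channel gene Cftr had 32 and 73. Introns of REPTOR, a transcription factor that acts when TORC1 signalling is low, of jumu, which encodes a Forkhead factor, and of the zinc finger gene rn, nearest to CG42544, had 44 and 106, 36 and 82, and 31 and 72 reads. The intergenic region, upstream of chinmo, a zinc finger factor of neuronal identity, had 32 and 76. None of these 10 windows held the Grh motif, which was in only 1.80% of all unrepeated members (12 of 668), so its absence from 10 windows says little. The tenth, at jumu, was at −0.62 when scaled by the shared regions.

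Genes of the nuclear receptor and ecdysone cascade had a late-opening region at 18 sites, the highest count of the lists examined. The lists were written with earlier results of these data known, so their counts are a description. Of the unrepeated strongest regions nearest to a gene of this list, 18 of 52 were late-opening (34.6%, interval 21.97% to 49.1%), beside 668 of 3478 over all genes (19.2%). Of its 30 genes 8 had a member. The strongest lay in an intron of Eip74EF, an early ecdysone response gene, with 56 reads in grhB37/B37 and 101 in grhB37/+, and 2 more lay at this gene. The gene ftz-f1 had 5, of which the promoter had 53 and 80 reads. The promoter of Eip78C, an ecdysone-induced nuclear receptor, had 63 and 89 reads, and that of E23, which encodes a transporter that removes ecdysone from cells, had 54 and 70. Eip75B had 3 members, and Hr38 and the receptor gene EcR 2 each. At Hnf4, a receptor of fat metabolism, the promoter had 33 and 69 reads. Of the 18 only one, in an intron of Eip75B, had no region in grhB37/B37, and the median log2 ratio of the others was −0.63, or −0.02 under scaling by the shared regions.

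Lists of differentiated cell types held few regions and gave wide intervals. Of unrepeated regions at genes of neuron function 5 of 8 were late-opening (62.5%, interval 24.5% to 91.5%). They were the promoters of Shab, a potassium channel gene (49 reads in grhB37/B37 and 75 in grhB37/+), of brp, a scaffold of the presynaptic active zone (39 and 66), of cpx, a regulator of vesicle fusion (46 and 71), and of the GABA receptor gene Rdl (33 and 44), and an intron at the acetylcholine synthesis gene ChAT (34 and 66). Of 11 at muscle structure genes 5 were (45.5%, interval 16.7% to 76.6%), 3 of them at Msp300 and the others at the tropomyosin genes Tm1 (54 and 72) and Tm2 (no region in grhB37/B37 and 47 reads in grhB37/+). Of 17 at cuticle and chitin genes 7 were (41.2%, interval 18.4% to 67.1%). These were the chitinase gene Cht2 (68 and 94), obst-B, a chitin-binding protein gene (36 and 67), the chitin deacetylase genes verm (37 and 66) and Cda5 (no region and 53), nyo and mey, which encode zona pellucida proteins of the apical matrix (46 and 66, and 45 and 62), and the cuticle protein gene Cpr35B (34 and 43). The intervals for muscle structure and for cuticle and chitin contained the 19.2% over all genes, and that for neuron function did not. Many lists were examined, and with 8 regions of 1 sample the neuron function share is a description only. Shares were 18.4% at neuronal recognition genes (7 of 38), 9.09% at glial genes (1 of 11), 7.69% at muscle and heart regulators (2 of 26, at mid and mbc), 15.4% at genes of endoderm, gut and fat body (2 of 13, at srp with 57 and 62 reads and at Hnf4) and 12.5% at chemosensory receptor genes (1 of 8). Of 7 unrepeated strongest regions at hemocyte genes 0 were late-opening, with an upper limit of 41.0%. The median log2 ratio over background was −0.66 for neuron function, −0.74 for muscle structure and −0.53 for cuticle and chitin, beside −0.68 over all unrepeated members, and was −0.06, −0.13 and 0.08 under scaling by the shared regions.

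Other epithelial and epidermal lists, known to include genes that Grh acts on, had shares of 12.0% to 33.3%. Of unrepeated strongest regions at septate and adherens junction genes 3 of 25 were late-opening (12.0%), at Atpalpha (50 reads in grhB37/B37 and 91 in grhB37/+), cora (56 and 76) and Lac (52 and 64). At genes of melanization and wound repair it was 2 of 12 (16.7%), at ple, the tyrosine hydroxylase gene (42 and 57), and msn (52 and 79). At epidermal regulators it was 7 of 45 (15.6%), with 3 at vvl, a POU factor gene, and one each at bab1, bab2, bowl and sbb. At tracheal genes it was 4 of 27 (14.8%), at esg (61 and 99), pnt (40 and 79), trh (48 and 61) and stumps (35 and 59). The Osiris genes, which are needed for cuticle formation in trachea and epidermis, had 1 of 3 (33.3%), at Osi6 (68 and 89). The intervals of all 5 lists contained the share over all genes.

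Early patterning genes had shares near the 19.2% over all genes or below it. Of unrepeated strongest regions at gap and pair-rule genes 4 of 17 were late-opening (23.5%, interval 6.81% to 49.9%), at Kr, at pdm2 (47 reads in grhB37/B37 and 87 in grhB37/+), at slp2 (43 and 80) and at opa (36 and 45), with a median log2 ratio of −0.93 over background and −0.32 scaled by the shared regions. At segment polarity and signalling genes it was 9 of 38 (23.7%, interval 11.4% to 40.2%), among them the promoter of gsb-n (47 and 62), the promoter of the BMP ligand gene dpp (32 and 65), and regions near mid (29 and 58) and fz (no region and 72). Hox genes had 1 of 30 (3.33%, interval 0.084% to 17.2%), in an intron of Abd-B (38 and 48), and 2 more members, those near Scr, had repeated windows.

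The canonical Grh motif was rare in both sets of windows, with overlapping intervals. It was in 12 of 968 (1.24%, interval 0.64% to 2.16%), in 42 of 2890 with an early counterpart (1.45%, interval 1.05% to 1.96%) and in 1.40% of all strongest regions. The same strings written backwards were in 0.62% of late-opening windows and in 0.87% of the others. All 12 were unrepeated, which is 1.80% of 668 (interval 0.93% to 3.12%), against 1.49% of unrepeated windows with an early counterpart. The motif was in 3.15% of members with a weak region in 4 to 9 early lists (8 of 254) and in 0.454% of members with no early region (2 of 441), whose intervals of 1.37% to 6.11% and 0.055% to 1.63% overlapped. Of these 441, 237 had repeated windows, none with the motif, so the 2 lay among 204 unrepeated members. Besides the genes whose windows are printed above, the 12 lay at the promoters of CG31743 (70 reads in grhB37/B37 and 92 in grhB37/+) and CG10344 (32 and 65), in a coding exon of Sdb (43 and 72), in introns at CG30159 (34 and 65) and of the proton pump gene Vha16-1 (38 and 82), and near the segment polarity gene en (no region and 38). A region was called in grhB37/B37 at 10 of the 12. The median log2 ratio of these 10 was −0.82 over background and −0.21 scaled by the shared regions, against −0.68 and −0.07 over the 535 unrepeated members without the motif that had a mutant region. Scaled values were below 0 at 8 of the 10 and at 331 of the 535. Among regions with an early counterpart the order was the other way, with −0.65 where the window held the motif and −0.69 where it did not.

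Other motifs were searched as strings on both strands of the same windows. GAGAGAG was the most frequent of those searched, in 110 late-opening windows (11.4%) against 10.4% of the others, and in 12.1% against 10.6% of unrepeated ones. At promoters it was in 15.8% of late-opening windows (72 of 456, interval 12.6% to 19.5%) and in 9.89% of those with an early counterpart (interval 8.66% to 11.2%). Away from promoters it was in 7.42% of late-opening windows (38 of 512) and in 11.8% of the others (88 of 747). Of the 110 late-opening windows with the string, 12 lay at copies of histone genes, which share their sequence. GAGAGAG read backwards is the same string, so it has no reversed control. The nuclear receptor half-site AGGTCA was in 3.93% (38) against 1.73%, but 23 of the 38 windows lay in element 297, and of unrepeated windows 0.90% (6) held it against 1.64%. The Trachealess site TACGTG was in 1.14% against 2.73%, and in 1.35% against 2.70% of unrepeated windows, but the same letters written backwards were in 2.38% against 5.12% and in 2.54% against 5.09%. The site of Dref, TATCGATA, a factor of housekeeping promoters, was in 1 late-opening window (0.10%) and in 33 of the others (1.14%). The E-box CAGCTG was in 5.48% against 6.61%, the Forkhead site TGTTTAC in 2.89% against 3.18% (1.65% against 3.17% of unrepeated windows, with 12 of the 28 in element 297), AGATAAG in 1.34% against 0.66%, the AP-1 sites TGACTCA and TGAGTCA in 1.03% against 0.76%, the POU site ATGCAAAT in 0.83% against 0.62%, and the Zld site CAGGTAG in 0.41% against 0.59%. Over all strongest regions these shares were 10.6% for GAGAGAG, 6.32% for the E-box, 3.11% for the Forkhead site, 2.33% for the Trachealess site, 2.28% for the nuclear receptor half-site, and 0.54% to 0.88% for the other 5. Of unrepeated windows, AGATAAG was in 1.05% (7 of 668) against 0.60%, with overlapping intervals, and the POU site in 0.60% of both sets. There the E-box was in 6.59% against 6.76%, the AP-1 sites in 1.20% against 0.78%, and the Zld site in 0.30% against 0.60%. The median GC content was 47.5% in late-opening windows and 46.5% in the others. Among unrepeated windows it was 49.5% against 46.5%, and among repeated ones 43.6% in both sets. The part of base composition in the motif shares was not tested. A match is a description of the sequence and not evidence that a factor was bound.

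**Figure D5:**
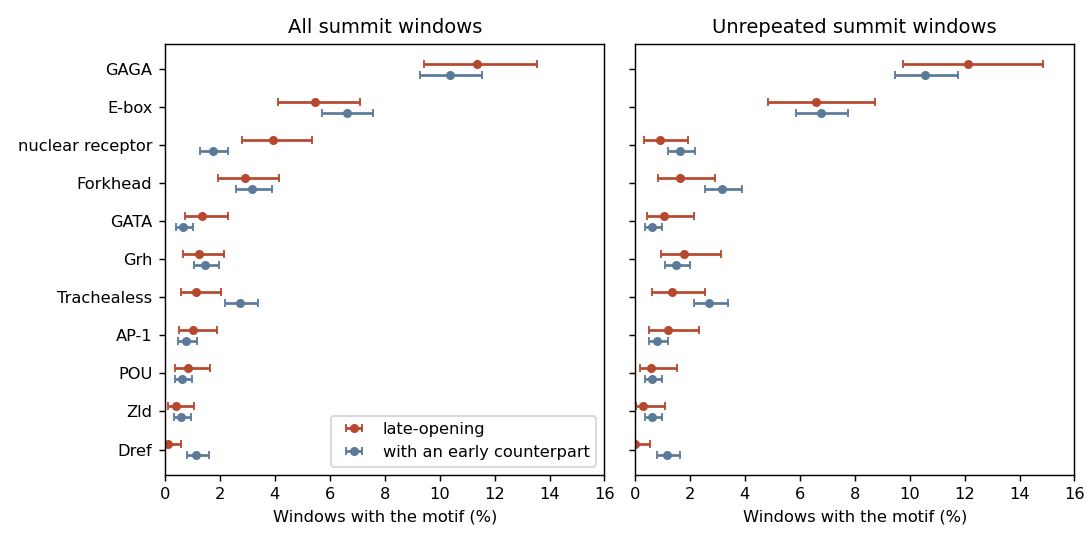
Percent of summit windows of 101 bases that hold each string (x axis) for the motifs searched (y axis), in late-opening regions and regions with an early counterpart, over all windows on the left and unrepeated windows on the right; bars are exact 95% intervals. The nuclear receptor string is at 3.93% against 1.73% on the left and at 0.90% against 1.64% on the right, and Grh is between 1.24% and 1.80% in all cases.

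The members were also set beside the same rule applied to the grhB37/B37 list. There 1364 of 3699 strongest regions on chromosomes 2 and 3 were late-opening (36.9%), against 968 of 3858 in grhB37/+ (25.1%). Of the 1364 in grhB37/B37, 571 overlapped a member (41.9%), and 185 overlapped no region of the grhB37/+ list (13.6%). The latter share was not computed over all strongest grhB37/B37 regions. Of the 968 members in grhB37/+, 564 overlapped one of the 1364 (58.3%), and 565 overlapped one of the strongest 5000 of the grhB37/B37 list (58.4%). So did 3119 of all 5000 strongest grhB37/+ regions, on any chromosome. The strongest 5000 of the weaker list reach down to lower −log10 q, which moves with this difference, and its part in it was not tested.

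No region of grh itself was late-opening. Of the strongest regions in or within 1 kb of grh, which runs on 2R from 17801132 to 17842820, 6 were nearest to grh and 1 to Orai, a calcium channel gene beside it. The strongest, in an intron, had 73 reads in grhB37/B37 and 95 in grhB37/+. All 6 at grh had a region in grhB37/B37, and the one at Orai had none.

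The weakest members, at ranks 4993, 4994 and 4996, lay near CG11634, CG42570 and CG3860 with a −log10 q of 10.3, and the next regions that would have qualified, at ranks 5003, 5005 and 5008, lay near a His2A copy, vri and Meltrin, also at 10.3. The members closest to the early limit, near CG13907, haf and CG15594, had their best early rank at 15018, 15023 and 15069. The regions just past it, near CG33958, Cipc and ftz-f1, had theirs at 14982, 14981 and 14954.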

How the data were processed

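The deposited lists hold 1 row per summit, called by the authors with MACS2 after trimming with Trimmomatic 0.36 and alignment to dm6 with Bowtie2, and by the study's methods reads aligning to several places were removed. The single-end libraries at 11-12 h were handled likewise with single-end settings, and whether that removal was complete there was not tested. Replicates were pooled within each list, except that lists from crosses changing both maternal and zygotic grh hold calls for each embryo. Values used were the fold enrichment (a ratio of pileup to local background) and −log10 p and −log10 q, as deposited by the authors. Read depth was not given in the sources used here. The members and lists were chosen with earlier results of these data known.

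Pileup and local background were solved from fold enrichment and −log10 p under a Poisson model. Within 0.05 of a whole number were 99.99% of summits in the grhB37/B37 list and 99.96% in the grhB37/+ list. Mutant and control pileups were divided by their lists' median background over regions (15.66 and 15.26), which stands in for a genome-wide background. Start sites came from protein-coding genes of the Ensembl 115 annotation, and sequences and elements from RefSeq. The 31-base words of repeated windows were counted on both strands.

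Genes were named by rule: the 10 strongest members, the 10 genes nearest to the most members, the 10 strongest members without a mutant region, the 10 strongest with the Grh motif, up to 4 genes per list with the strongest members, 3 regions on each side of each limit, and grh. Others were named after their values were seen. Alternatives were other rank limits, overlaps, distances, windows and scalings, each chromosome alone, and each embryo left out where rows name it. Scripts ran under Python 3.11.15, numpy 2.4.6, scipy 1.17.1 and matplotlib 3.10.9 and were tested on simulated data.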

Additional observations from a re-analysis of the deposited data

How the results depend on the processing

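Of 91 alternatives, 72 left the value within its 95% interval (for the number of regions, within 1.5 times), 18 moved it and 1 reversed it. Of the 91, 44 came from leaving out each of 11 early embryos, and 0 of these moved a value. They left the samples at 11-12 h unchanged and so say nothing about the spread there. Counting every region of each early list gave 441 members, with 39.5% at promoters, 22.7% without a mutant region and 0.454% with the Grh motif. Taking only the strongest 2000 of the control list gave 285 members, with 54.7% at promoters and 4.56% without a mutant region. Ranking by fold enrichment gave 24.9% without a mutant region, and asking for one of the strongest 5000 of the mutant list gave 41.6%. Of all 5000 strongest grhB37/+ regions, on any chromosome, 3119 overlapped one of the strongest 5000 of the mutant list, beside 565 of the 968 members. For the ranking by fold enrichment the share over all strongest regions was not computed. The promoter share was 50.4% with start sites of any gene, 39.6% within 500 bp and 53.4% within 2 kb. The Grh motif was in 0.62% of windows of 25 bp on each side and in 2.69% of windows of 100 bp on each side. The median log2 ratio was reversed to 0.019 under scaling by the 3119 shared strongest regions. Chosen after seeing the data, unrepeated windows alone gave 59.4% at promoters and a median log2 ratio of −0.68, and fold enrichment over the local background gave −0.46. Without element 297 the share with no mutant region was 16.6%. Leaving out each of 11 embryos in turn gave 966 to 971 members, 47.0% to 47.2% at promoters, 19.4% to 19.8% without a mutant region and 1.24% with the motif throughout. No paired analysis was possible because the lists at 11-12 h held 1 sample per genotype and the comparisons came from no test.

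At 11-12 h a single sample per genotype and an unknown depth limit every mutant value, and weak regions were called less often in the grhB37/B37 list. Age and library protocol cannot be told apart.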
